A study of Mus musculus with 7 samples.

Results

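The genes described here are *Npy*, which encodes neuropeptide Y, and *Npy1r*, *Npy2r* and *Npy5r*, which encode its Y1, Y2 and Y5 receptors. They were chosen by name, 1 ligand and 3 receptors, with earlier results of these data known. The authors had already reported increased *Npy* expression in these mutants. The members are 4 of the 47729 genes in the table and 4 of the 19684 genes with enough counts to be tested. RNA was sequenced from whole forebrain at postnatal day 15 in 7 libraries of F1(C57BL/6 X 129Sv) mice. The 4 control libraries came from *Lhx6*+/- mice and the 3 mutant libraries from *Lhx6*-/- mice, and the comparison asks how forebrain transcripts differ when *Lhx6*, a transcription factor needed by interneurons born in the medial ganglionic eminence (MGE), is lost. Each library pooled 2 animals. The study's mutant allele is a germline null (*Lhx6*tm2Vpa), so it acts in every cell that would express *Lhx6*, the controls carry 1 copy of it too, and no wild-type mice were analysed here. In bulk forebrain RNA, fewer cells of a type and less RNA per cell cannot be told apart, here and in every comparison that follows. Libraries are named by genotype and by the library number of their column, control 2, 3, 10 and 11 and mutant 5, 12 and 13.

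Neuropeptide Y is one of the most abundant peptides of the forebrain, where much of it is made by GABAergic interneurons that also contain somatostatin or nitric oxide synthase and by neurogliaform cells. It is cut from a larger precursor, amidated at its end and released from dense-core vesicles. Its receptors couple to inhibitory G proteins, which lower cAMP, open inwardly rectifying potassium channels and reduce calcium entry. Y1 sits largely on the receiving neuron, Y2 largely on nerve endings, where it lowers release of transmitter and of the peptide itself, and Y5 is often found in neurons that also have Y1.

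In the GRCm38 annotation, *Npy* (ENSMUSG00000029819) lies on the plus strand of chromosome 6, from 49822710 to 49829507, with 566 bases of exon. *Npy2r* (ENSMUSG00000028004) lies on the minus strand of chromosome 3, from 82538383 to 82548084. *Npy5r* (ENSMUSG00000044014; minus strand, 66679965 to 66688094) and *Npy1r* (ENSMUSG00000036437; plus strand, 66697422 to 66706798) are neighbours on chromosome 8, pointing away from each other with 9327 bases between them. None of the 4 shares exonic bases with another gene. Of all words of 36 bases in their transcripts, the read length of the study, none of *Npy*, *Npy2r* or *Npy5r* occurred in another gene and 3.98% of those of *Npy1r* did, so its counts are slightly less certain.

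The 250 bases upstream of the start site are printed for *Npy* and *Npy2r*, the 2 members whose transcripts passed the test below, from RefSeq on GRCm38.p6. Capitals mark the GC box, GGGCGG.

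Npy upstream, chr6:49822460-49822709, plus strand: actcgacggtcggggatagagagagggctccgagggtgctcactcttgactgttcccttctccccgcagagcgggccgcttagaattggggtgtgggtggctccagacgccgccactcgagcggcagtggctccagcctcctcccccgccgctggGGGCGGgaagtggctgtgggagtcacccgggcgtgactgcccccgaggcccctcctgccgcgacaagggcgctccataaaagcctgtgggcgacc
Npy2r upstream, chr3:82548086-82548335, minus strand: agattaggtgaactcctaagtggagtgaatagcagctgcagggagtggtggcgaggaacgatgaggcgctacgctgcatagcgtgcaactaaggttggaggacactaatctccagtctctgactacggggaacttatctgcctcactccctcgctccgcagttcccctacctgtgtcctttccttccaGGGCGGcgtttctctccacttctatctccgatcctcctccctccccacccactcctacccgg

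The *Npy* window was 69.2% G and C and held the box at base -95 from the start site, and the *Npy2r* window was 56.8% G and C and held it at base -62. On either strand, 32.7% of 32851 upstream windows of this length held GGGCGG. Also searched on both strands were TGACG, which 17.8% of windows held, then TATAAA with 12.4%, and then TAATTA with 4.84%. None of these 3 matched in either printed window, and the *Npy1r* and *Npy5r* windows held none of the 4 words. These are matches of letters in a window, and no binding was measured.

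Libraries summed to between 32556304 and 38069151 expected counts in controls and between 34943398 and 37384849 in mutants. *Lhx6* itself fell from between 476 and 615 normalized counts in controls to between 70.1 and 76.6 in mutants, so every library carried its label's level. The authors describe *Lhx6* as absent from mutant samples. What the counts that remained in every mutant library stand for was not tested. Markers of the telencephalon were present in every library (9 genes with a summed level of 86071 normalized counts or more), whereas the 4 hindbrain genes summed to between 7.68 and 70.3 in controls, highest in control 3, and between 15.1 and 27.8 in mutants. Of these, *Pcp2* was present in every library (7.68 to 53.2), *Hoxb5* reached at most 5.02 and *Gabra6* at most 12.1, each highest in control 3. *Gabra6* was at 0 in the other 6 libraries and *Hoxa5* was at 0 in all 7, which allows up to 3 counts a library. Each normalized count is a gene's count divided by the TMM-scaled library total and brought back to the mean library.

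*Npy* transcript was higher in mutants, the receptor transcript *Npy2r* was lower, and *Npy1r* and *Npy5r* did not pass the test. Among the 4 genes, 1 was called higher and 1 lower at an adjusted p of 0.05 or less (quasi-likelihood F test of edgeR, Benjamini-Hochberg over all tested genes). Over all 19684 tested genes, 4.85% were called, 2.97% higher and 1.87% lower, and the median log2 fold change was -0.013. With only 4 genes, these counts serve as a description of each gene and not of a trend over the set.

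*Npy* stood at 2368, 2745, 2233 and 2340 normalized counts in controls 2, 3, 10 and 11 and at 8359, 8297 and 6799 in mutants 5, 12 and 13. Every mutant library was far above every control library, with no overlap, as in 19.7% of tested genes in either direction and 10.7% with the mutants above. The means were 2421 ± 223 (SD, n = 4) and 7818 ± 883 (SD, n = 3), a log2 fold change of 1.69 with a standard error of 0.11 and a 95% interval from 1.45 to 1.93, or 3.23-fold (edgeR adjusted p = 0.000226). *Npy* ranked 9th of 19684 genes by p and 7th among those that were higher. By size of change it stood less far out, with 0.848% of genes showing a larger increase. Leaving out each library in turn gave log2 fold changes from 1.64 to 1.78, all called.

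*Npy2r*, the largely presynaptic receptor, stood at 273, 232, 417 and 323 normalized counts in controls 2, 3, 10 and 11 and at 113, 171 and 160 in mutants 5, 12 and 13. No mutant library reached the lowest control library. Mutants lay wholly below controls in 9.00% of tested genes. The means were 311.4 ± 79.9 (SD, n = 4) and 147.9 ± 30.7 (SD, n = 3), a log2 fold change of -1.07 with a standard error of 0.23 and a 95% interval from -1.60 to -0.55 (edgeR adjusted p = 0.0343). The mutant level was thus 0.475 of the control level.

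The *Npy2r* call lay close to the threshold. It was lost in 6 of the 7 fits that left out a library, with an edgeR adjusted p of 0.0591 without control 2, 0.07 without control 10, 0.0783 without control 11, 0.104 without mutant 5, 0.0809 without mutant 12 and 0.117 without mutant 13. It stood only without control 3, the lowest control, at 0.0245. The change itself stayed between -1.19 and -0.90 in those fits.

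*Npy1r*, the most abundant of the receptor transcripts, stood at 565, 777, 992 and 895 normalized counts in controls 2, 3, 10 and 11 and at 461, 659 and 619 in mutants 5, 12 and 13. Mutants 12 and 13 lay above control 2, so the groups overlapped. The means were 807.4 ± 184 (SD, n = 4) and 579.8 ± 105 (SD, n = 3), with a log2 fold change of -0.48 that did not pass the test (standard error 0.20, 95% interval from -0.94 to -0.02, edgeR unadjusted p = 0.043, adjusted p = 0.253). *Npy5r*, its neighbour on chromosome 8, stood at 76.8, 83.3, 119 and 90.5 in the controls and at 58.4, 83.8 and 80.5 in the mutants. The groups overlapped, with 2 mutants above control 2. The *Npy5r* means were 92.39 ± 18.6 (SD, n = 4) and 74.25 ± 13.8 (SD, n = 3), with a log2 fold change of -0.32 (95% interval from -0.81 to 0.17, edgeR adjusted p = 0.517). The interval covers both no change and a fall as large as that fitted for *Npy1r*.

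**Figure D1:**
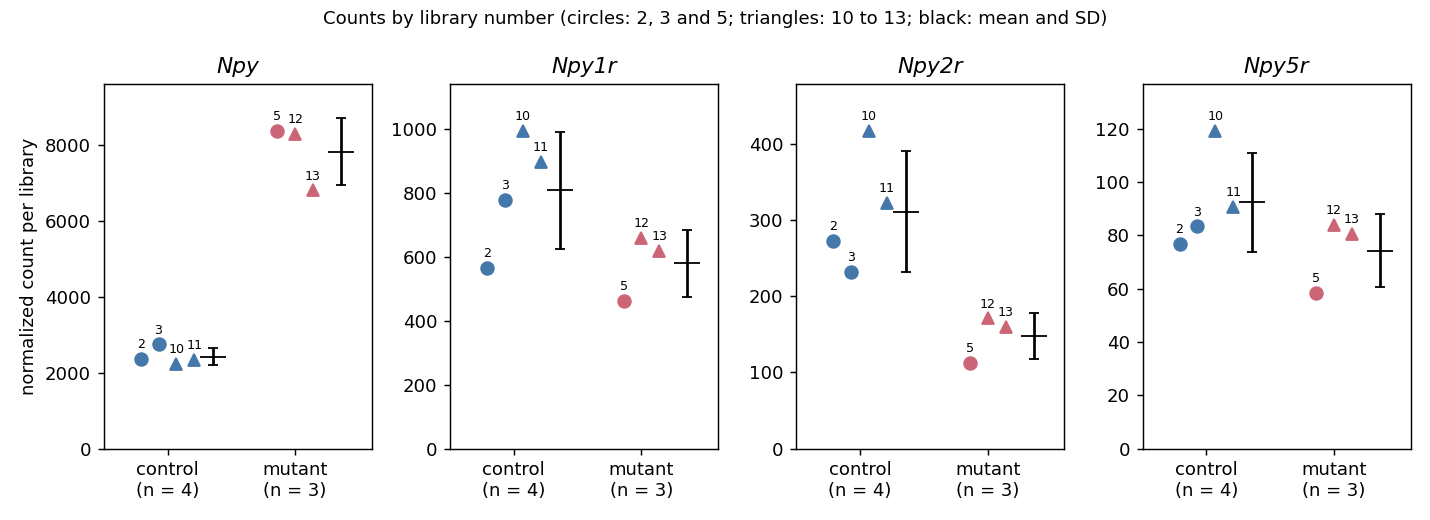
Normalized counts of *Npy*, *Npy1r*, *Npy2r* and *Npy5r* in each library by genotype, 1 panel a gene with its own vertical scale starting at 0. Points are libraries with their number and black bars are group means with SD, circles are libraries 2, 3 and 5 and triangles libraries 10 to 13 (4 control, 3 mutant); the groups are apart for *Npy* and *Npy2r* and overlap for *Npy1r* and *Npy5r*.

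The libraries also fell into an early run of column numbers (2, 3 and 5) and a later run (10 to 13), and what the runs stand for is not given in the sources used here. All 3 receptors were lower in libraries 2, 3 and 5 than in libraries 10 to 13 of the same genotype, an order shared by 19.1% of tested genes, and *Npy* had the reverse order, as did 19.3%. With the run as a term in the fit, the log2 fold change was -0.56 for *Npy1r* (edgeR adjusted p = 0.0174) and -1.16 for *Npy2r* (adjusted p = 0.00124), where 11.2% of tested genes were called, 6.16% higher and 5.04% lower. Within libraries 10 to 13 the values were -0.55 (adjusted p = 0.00594) and -1.15 (adjusted p = 0.00318), where 9.44% of genes were called, 5.36% higher and 4.08% lower. Within libraries 2, 3 and 5, which hold 1 mutant and where no test was run, they were -0.54 and -1.16, and *Npy* was 1.71 there and 1.73 within libraries 10 to 13. The genotype difference of each of these 3 genes thus kept its direction and nearly its size within both runs, and the *Npy1r* call depended on whether the run was in the fit.

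To compare levels between genes, counts were divided by exon length and by library size (RPKM, reads scaled to exon length and sequencing depth). On that scale *Npy* stood at 120 ± 11.1 in controls and 388 ± 43.8 in mutants. The order of the receptors was the same in every library, *Npy1r* above *Npy2r* above *Npy5r*, although in mutants the levels of the last 2 came close. *Npy1r* was at 7.54 ± 1.72 RPKM in controls and 5.41 ± 0.98 in mutants. *Npy2r* was at 2.58 ± 0.663 and 1.23 ± 0.255, and *Npy5r* at 1.12 ± 0.225 and 0.901 ± 0.167 (SD, n = 4 and 3). The mutant ranges of *Npy2r* (0.938 to 1.42) and *Npy5r* (0.709 to 1.02) overlapped, while their control ranges (1.92 to 3.46 and 0.931 to 1.44) did not.

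**Figure D2:**
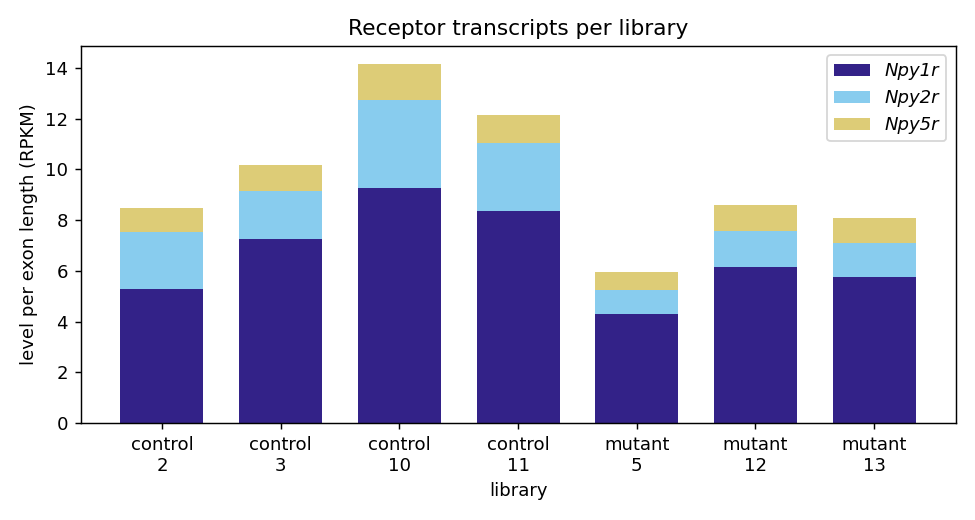
Levels per exon length (RPKM, vertical axis from 0) of the receptor transcripts in each of the 7 libraries, stacked so that a bar's height is their sum. The *Npy2r* share of a bar lies between 18.9% and 26.8% in the 4 controls and between 15.8% and 16.5% in the 3 mutants.

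The summed receptor level was 11.2 ± 2.46 RPKM in controls and 7.54 ± 1.40 in mutants (SD, n = 4 and 3). Of this sum *Npy1r* took 66.9% in controls and 71.8% in mutants, *Npy2r* 23.0% and 16.2%, and *Npy5r* 10.0% and 11.9%. *Npy* transcript exceeded the receptor sum 10.7-fold in controls and 51.4-fold in mutants. These ratios of transcripts say nothing of peptide or receptor protein, which were not measured in these libraries.

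Ratios of receptors within a library, which do not depend on scaling, were compared between genotypes by a two-sided exact permutation test (35 arrangements of the genotype labels), with adjustment over 3 pairs. The log2 ratio of *Npy2r* to *Npy5r* was 1.83, 1.48, 1.81 and 1.84 in controls and 0.952, 1.03 and 0.991 in mutants. All mutants lay below all controls, a difference of -0.75 (exact p = 0.0286, the smallest the design allows, adjusted p = 0.0857). The log2 ratio of *Npy1r* to *Npy2r* was higher by 0.60 in mutants (1.38 ± 0.299 and 1.98 ± 0.0443, SD, n = 4 and 3, exact permutation p = 0.0571, adjusted p = 0.0857), again with every mutant (1.95 to 2.03) above every control (1.05 to 1.74). That of *Npy1r* to *Npy5r* differed by -0.15 (exact permutation p = 0.257, adjusted p = 0.257). None of the 3 passed after adjustment, but a pair that differed alone could not have gone below 0.0857, so these tests leave undecided whether the receptors responded differently to genotype. In the early and the later run taken alone, the difference was -0.70 and -0.82 for *Npy2r* to *Npy5r* and 0.63 and 0.59 for *Npy1r* to *Npy2r*.

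The receptors also varied together between libraries of a genotype. As deviations of log2 CPM from the genotype means over the 7 libraries, Pearson's r was 0.76 for *Npy1r* and *Npy2r*, 0.89 for *Npy1r* and *Npy5r* and 0.92 for *Npy2r* and *Npy5r*, and between -0.66 and -0.30 for *Npy* with each of them. The libraries share the 2 runs described above, in which the receptors have 1 order and *Npy* the opposite one. Among genes with a mean of at least 100 normalized counts, those most like *Npy* over all 7 libraries were *Tspan5* (r = 0.998), *Pdlim1* (0.995) and *Anxa4* (0.994). Those most like *Npy1r* were *Tspyl5* and *Ciart* (both 0.992) and *Gria4* (0.990). For *Npy2r* they were *Ppm1f* (0.993), *Car2* (0.991) and *Trpm2* (0.988), and for *Npy5r* *Pak3* (0.986) and *Swt1* (0.985). With 13448 genes compared (13449 for *Npy5r*) over 7 libraries of 2 genotypes, values this high describe the ordering of the libraries.

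The rest of the family was scarcely detected. The genes of the related peptides, *Pyy* (peptide YY) and *Ppy* (pancreatic polypeptide), were at 0 in all 7 libraries, which allows up to 3 counts each, between 0.0788 and 0.0921 CPM. The receptor gene *Npy4r* reached at most 8.62 normalized counts and *Npy6r* at most 1.92, and none of these 4 genes had enough counts to be tested.

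Of 6 genes whose products cut, amidate or degrade neuropeptides, 2 were called higher and none lower in mutants. Over all tested genes, 2.97% were called higher and 1.87% lower. The median log2 fold change was 0.03 in the list, against -0.013 over all tested genes. *Pcsk1*, a convertase of peptide precursors, stood at 637, 620, 787 and 731 normalized counts in controls 2, 3, 10 and 11 and at 1193, 1274 and 1185 in mutants 5, 12 and 13. Every mutant was above every control, as in 10.7% of tested genes (log2 fold change 0.81, standard error 0.10, edgeR adjusted p = 0.00424). *Pam*, the enzyme that amidates peptide ends, stood between 6127 and 6579 in controls and between 9169 and 9669 in mutants (log2 fold change 0.55, standard error 0.07, edgeR adjusted p = 0.00466). Both calls held in all 7 fits that left out a library. Both enzymes act on many peptides besides neuropeptide Y.

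The other 4 did not pass. *Pcsk2*, the second convertase, stood at 12860 ± 979 in controls and 10380 ± 1190 in mutants (SD, n = 4 and 3, log2 fold change -0.31, edgeR adjusted p = 0.155), with the groups apart, and was called with the run as a term (adjusted p = 0.0142) and within libraries 10 to 13 (0.0429). Of its 36-base words, 5.22% occur in other genes. *Cpe*, which trims the cut ends, had a log2 fold change of 0.18 (edgeR adjusted p = 0.354) and was called within libraries 10 to 13 alone (0.0452). The peptidases *Dpp4*, which alters receptor preference of the peptide, and *Mme* (neprilysin) had -0.34 (adjusted p = 0.201) and -0.13 (adjusted p = 0.867).

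Of 17 genes for G proteins, potassium channels, adenylyl cyclases and calcium channels through which such receptors act, 1 was called lower and none higher. Over all tested genes, 1.87% were called lower and 2.97% higher. The list's median log2 fold change was -0.05. Its called gene was *Kcnj9*, a subunit (GIRK3) of G protein-gated potassium channels. It stood at 5600, 5400, 4954 and 5227 normalized counts in controls and at 2604, 2780 and 2498 in mutants. All mutants lay far below all controls (log2 fold change -1.01, standard error 0.08, edgeR adjusted p = 0.000581). Groups apart in that direction were found in 9.00% of tested genes. The *Kcnj9* call held when any 1 library was left out. *Cacna1a*, the pore of P/Q-type calcium channels, was 9743 ± 1950 in controls and 13470 ± 483 in mutants (SD, n = 4 and 3, log2 fold change 0.47, edgeR adjusted p = 0.138) and was called by DESeq2 (adjusted p = 0.0356).

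Genes that mark the neurons which make neuropeptide Y moved in both directions. Of 5 markers of MGE-derived neurons that can contain the peptide, 3 were called lower and 1 higher. Over all tested genes, 1.87% were called lower and 2.97% higher. The summed level of the 5 markers ranged from 6987 to 8608 normalized counts in controls and from 2680 to 2767 in mutants. *Sst* made up that difference, since the other 4 genes summed to between 1854 and 2644 in controls and between 2098 and 2159 in mutants. *Sst*, encoding somatostatin, was lower by far, at 5356 ± 874 in controls and 588.3 ± 70.7 in mutants (SD, n = 4 and 3, log2 fold change -3.19, edgeR adjusted p = 6.37e-05). *Nos1*, neuronal nitric oxide synthase, had a log2 fold change of -0.70 (edgeR adjusted p = 0.0337) and *Chodl*, a marker of long-range nitric oxide neurons, -1.79 (adjusted p = 0.0289). *Cort*, encoding the somatostatin-related peptide cortistatin, rose from 200.4 ± 53.1 to 762.7 ± 10.2 (SD, n = 4 and 3, log2 fold change 1.93, edgeR adjusted p = 0.00132), and *Tacr1*, the substance P receptor, did not pass (0.03, adjusted p = 0.951). The *Nos1* call was lost in 6 of the 7 fits that left out a library, all but that without control 3, and the *Chodl* call without control 2, 3 or 10 or mutant 12 or 13, with adjusted p of up to 0.132 and 0.131. *Sst* and *Cort* were called in all 7.

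For each count of *Sst* there were 0.397, 0.439, 0.480 and 0.513 counts of *Npy* in controls 2, 3, 10 and 11 and 12.5, 15.0 and 12.6 in mutants 5, 12 and 13. The groups were far apart, with *Npy* below *Sst* in every control and above it in every mutant. On the log2 scale the ratio went from -1.14 ± 0.16 to 3.73 ± 0.15 (SD, n = 4 and 3), a difference of 4.87. Since all mutants were above all controls for *Npy* and below them for *Sst*, the ratio had to separate the groups, and its value describes the combined size of both changes.

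Of 5 markers of neurogliaform cells, 1 was called higher and none lower (2.97% and 1.87% of all tested genes). Their summed level was 14668 to 16228 in controls and 15548 to 16263 in mutants. *Reln* (means 5568 in controls and 6017 in mutants), *Lamp5* (5219 and 4476) and *Id2* (2817 and 2666) weighed most in it. Which cells held these transcripts was not tested, so the sum does not count neurogliaform cells. *Ndnf*, a secreted factor of layer 1 interneurons, stood at 839.4 ± 106 in controls and 1320 ± 38.2 in mutants (SD, n = 4 and 3, log2 fold change 0.65, edgeR adjusted p = 0.0127), a call lost without mutant 12 (adjusted p = 0.0535) or mutant 13 (0.0657). *Lamp5* (log2 fold change -0.22), *Id2* (-0.08) and *Reln* (0.11) did not pass the edgeR test, with adjusted p of 0.339, 0.745 and 0.678. *Cplx3*, at 0.51 (adjusted p = 0.21), was called without control 3 (0.0465), with the run as a term (0.0153) and within libraries 10 to 13.

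**Figure D3:**
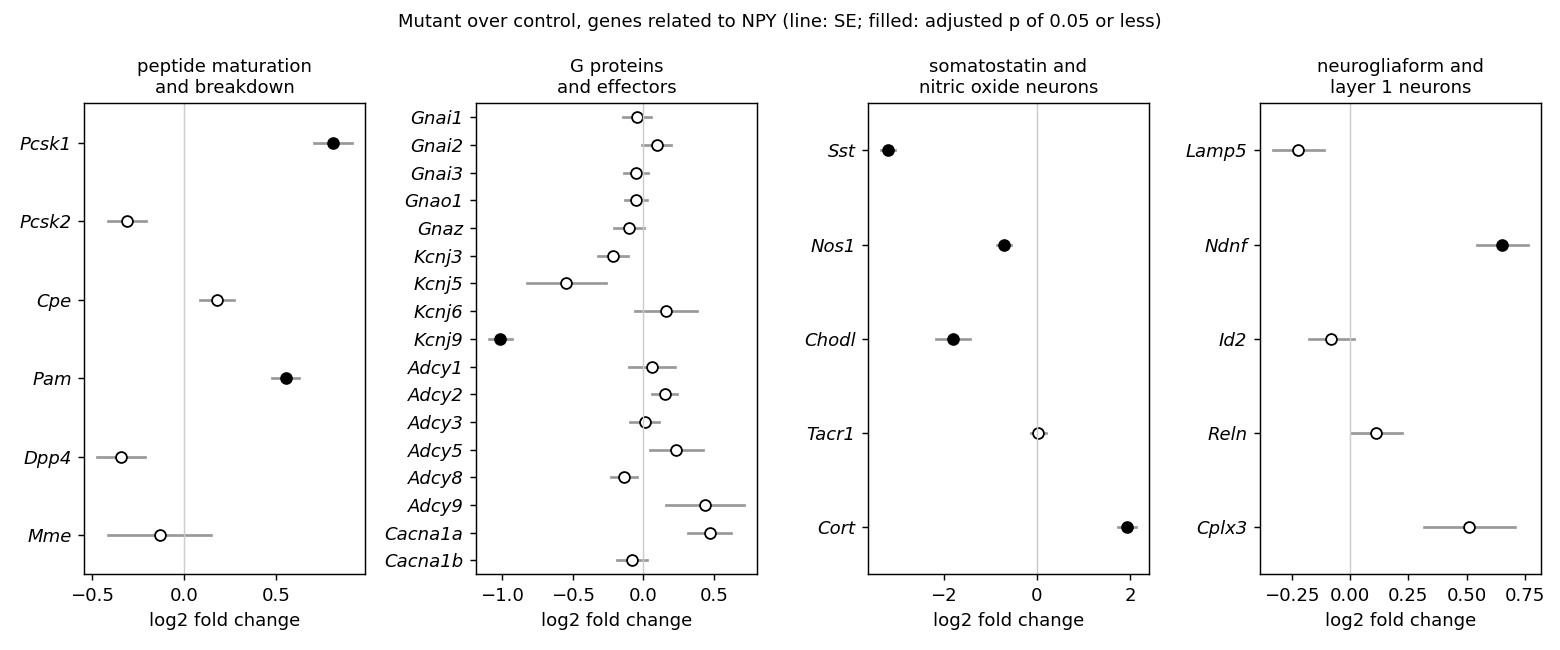
Log2 fold changes, mutant over control, of the genes for peptide maturation, receptor coupling and the neurons that make neuropeptide Y, with lines for the standard errors from edgeR and filled points for called genes. Each panel has its own horizontal scale; *Pcsk1* and *Pam* lie to the right of 0, *Kcnj9* and *Sst* to the left and *Cort* and *Ndnf* to the right.

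Neuropeptide Y is also made outside cortical interneurons, and genes listed as markers of those cells are given beside it. Which cells held these transcripts was not tested. Of 7 hypothalamic peptide genes 4 could be tested and none was called, and *Agrp*, which marks the arcuate neurons that make neuropeptide Y, stood at 9.413 ± 2.47 and 8.816 ± 1.0 normalized counts (SD, n = 4 and 3). The other tested genes of the list had log2 fold changes of 1.11 (*Avp*, with the groups apart), 0.96 (*Trh*) and 0.11 (*Pomc*). Their edgeR adjusted p were 0.28, 0.284 and 0.89. The list's summed level was 92.5 to 179 in controls and 132 to 274 in mutants. Of 3 testable genes of noradrenergic neurons, 1 was called higher and none lower (2.97% and 1.87% of all tested genes). The summed level of this list was 213 to 331 in controls and 583 to 776 in mutants, with no overlap. *Th*, tyrosine hydroxylase, rose from 54.46 ± 9.07 to 388.6 ± 102 (SD, n = 4 and 3, log2 fold change 2.83, edgeR adjusted p = 0.00044), while *Dbh*, the enzyme that makes noradrenaline and defines those neurons, was at 45.43 ± 5.34 and 48.16 ± 4.39 (log2 fold change 0.09, adjusted p = 0.88). *Slc18a2* had 0.39 and did not pass (edgeR adjusted p = 0.446). *Slc6a2*, too low to be tested, was at 2.01 to 6.1 normalized counts in controls and 6.63 to 12.5 in mutants. Both markers of olfactory ensheathing glia were measured. *Frzb* fell by 1.08 on the log2 scale (edgeR adjusted p = 0.0089), and *Prss56* had 0.90 (adjusted p = 0.145), so that their sum overlapped between groups (707 to 911 and 594 to 885). *Prss56* was called higher by DESeq2 (adjusted p = 0.0328 without and 0.032 with its beta prior) and within libraries 10 to 13 (log2 fold change 1.36, edgeR adjusted p = 0.0383), and had 0.37 within libraries 2, 3 and 5. What part these cells have in the *Npy* difference was not tested.

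Dissection and cell makeup were checked with further lists. The 9 telencephalic genes had a summed level of 86071 to 95049 in controls and 97631 to 117811 in mutants. Of 2 olfactory bulb genes *Cdhr1* was called lower (log2 fold change -0.79, edgeR adjusted p = 0.0441), a call lost in 6 of 7 fits that left out a library and standing only without control 3, with adjusted p of up to 0.122. Of 4 oligodendrocyte genes, *Mbp* and *Mag* were lower (-0.53, adjusted p = 0.00752, and -0.54, adjusted p = 0.01, edgeR), calls lost without mutant 13 (0.0609 and 0.0702) and, for *Mbp*, with no filter on low counts (0.0515), with a sum of 187207 to 244271 in controls and 135489 to 167149 in mutants. Of 4 astrocyte genes none was called by edgeR, but their sum was 39492 to 43893 in controls and 46077 to 50522 in mutants, with no overlap. *Aqp4*, a water channel, had a log2 fold change of 0.59 (edgeR adjusted p = 0.0716) and *Gja1*, the gap junction protein connexin, 0.30 (0.0575), both with the groups apart, and both were called in DESeq2 (adjusted p = 0.00536 and 0.000748 without its beta prior) and with the run as a term (edgeR, 0.03 and 0.021). No thalamic (3 tested), microglial (4), endothelial (4) or choroid plexus (3) gene was called by edgeR, and the sums of these lists overlapped between genotypes. The part of these differences in the receptor values was not tested.

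**Figure D4:**
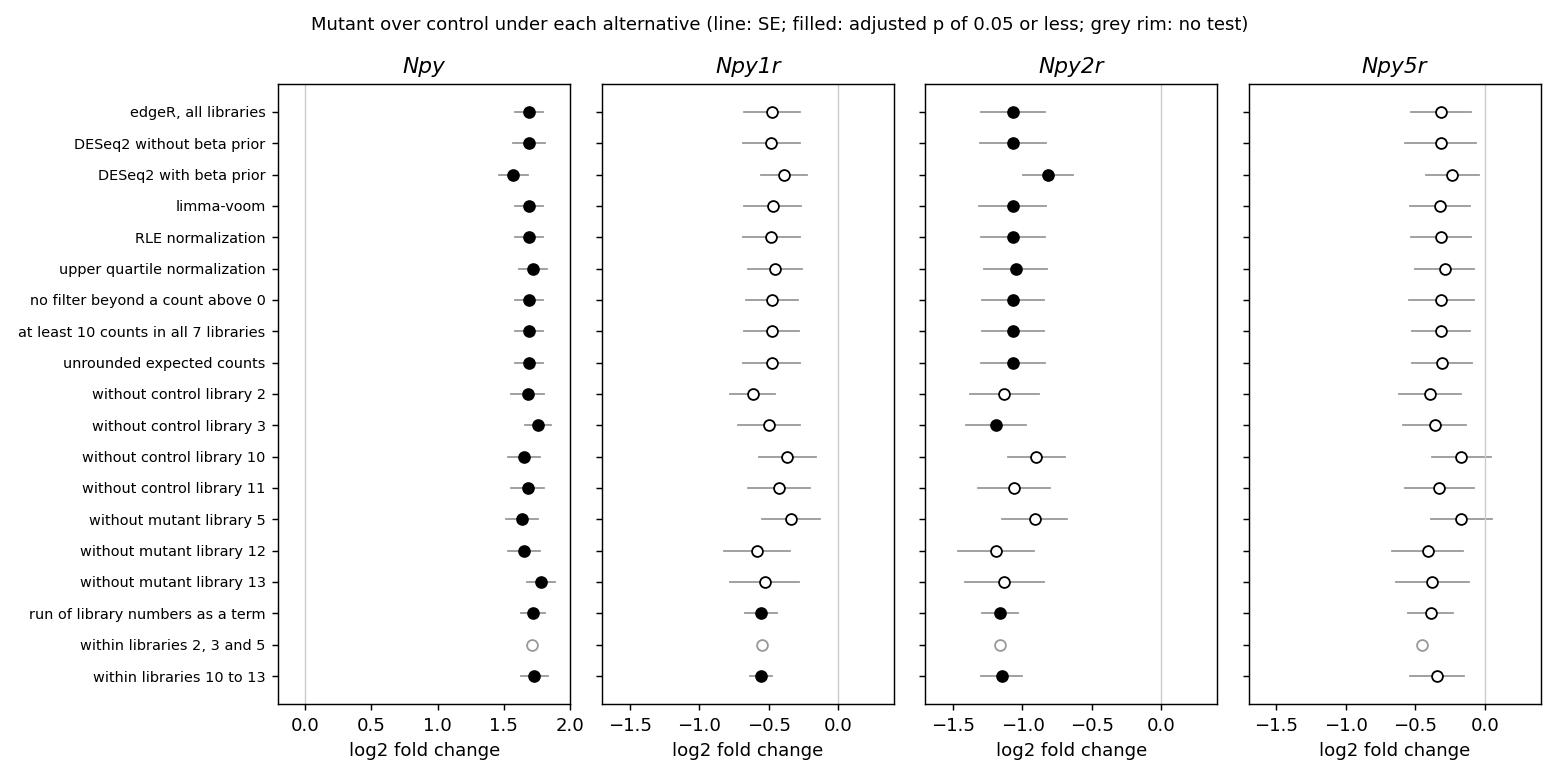
Log2 fold changes, mutant over control, of *Npy*, *Npy1r*, *Npy2r* and *Npy5r* under each way of processing the counts, 1 point a setting with its standard error, filled where the gene was called and grey where no test was run. *Npy* stays between 1.57 and 1.78, *Npy2r* between -1.19 and -0.82, *Npy1r* between -0.62 and -0.34 and *Npy5r* between -0.46 and -0.17.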

How the data were processed

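Forebrain RNA was sequenced in 7 libraries (4 control, 3 mutant), each a pool of 2 animals. The authors deposited RSEM expected counts per gene, unnormalized. The submitters' processing notes name cutadapt 1.9.1, Bowtie2 2.2.9, RSEM 1.2.31 and GRCm38. RSEM divides reads that match several genes, and 32.9% to 36.0% of values were not whole, so counts were rounded. The authors also deposited a DESeq2 comparison of the genotypes (fold changes and p-values), from which gene names alone were used, and an exon annotation. Columns carry genotype and library number only, so sex and RNA quality, recorded per pool, entered no fit. Of the count columns, 0 were left out. Pools hold different animals; libraries of a genotype differed by more than sampling noise (chi-square per degree of freedom 9.93 to 70.4), so each counted as 1 replicate.

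A gene needed 10 counts in 3 or more libraries to be tested. Library sizes were scaled by TMM (factors 0.976 to 1.03) and genotypes compared in edgeR 4.0.16 (R 4.3.3, quasi-likelihood F test, no covariate, Benjamini-Hochberg, threshold 0.05). Log2 CPM used a prior count of 2. Intervals are 95% from the fit. Floors of 3 counts cover counting error only. Scripts were tested on simulated data. Alternatives were limma-voom (limma 3.58.1), DESeq2 1.42.0 (beta prior on or off), RLE and upper quartile scaling, no filter, a filter on all 7 libraries, unrounded counts, the run of library numbers as a term and within each run, pseudocounts of 1 and 10 for ratios, and each library left out. Words of 36 bases were compared between transcripts of a later annotation of the build (GENCODE M21). Members and lists were chosen with earlier results of these data known. Named genes are the 4 members, genes of the lists, *Lhx6* and the 3 genes most correlated with each member; some named by this rule are not reported here.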

Additional observations from a re-analysis of the deposited data

Results flagged for a closer look

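In 42 groups of 4 control libraries, the highest and lowest values were compared with the rest, and 3 groups held a library set apart from the other controls. Chance gives about 1 in 20 groups. The log2 ratio of *Npy2r* to *Npy5r* was 1.48 in control 3 against 1.81 to 1.84 in the other controls, a gap that was 0.917 of the range of the controls, above the Dixon limit at the 95% level for 4 values. It was still above all 3 mutants, and without it the genotype difference was -0.84 in place of -0.75. *Gnao1*, the G protein subunit most abundant in brain, was at 32028 normalized counts in control 2 against 28665 to 29215 (0.836 of the range). *Id2* was at 3246 in control 3 against 2622 to 2717 (0.848 of the range), and neither gene passed the test between genotypes by edgeR (adjusted p = 0.799 and 0.745).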

How the results depend on the processing

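*Npy* was called in all 17 alternatives with a test and *Npy5r* in none. *Npy1r* was called with a term for library run (-0.555) and within libraries 10 to 13 (-0.554). *Npy2r* was called in 11 of 17, with values from -1.19 to -0.90 when a library was left out. The difference in the ratio of *Npy* to *Sst* was 4.78 to 4.93 without 1 library, where 6 libraries cannot reach 0.05. Called genes numbered 954 (585 higher, 369 lower), 1731 (1002 and 729) by DESeq2 without its beta prior, 1734 (1009 and 725) with it, 2205 (1213 and 992) with the run as a term, 1858 (1055 and 803) within libraries 10 to 13, and 324 to 949 (243 to 578 and 81 to 371) without 1 library. *Cacna1a* made 1 coupling gene higher under both DESeq2 fits, and *Pcsk2* made 1 maturation gene lower with the run as a term and within libraries 10 to 13. Uncalled genes changed sign near 0: *Mme* without control 11 (0.0257) and mutant 5 (0.15; -0.322 to 0.15 over libraries left out), *Tacr1* without control 2 (-0.0379), control 10 (-0.00995) and mutant 13 (-0.0514; up to 0.118 over libraries left out), with the run as a term (-0.00386) and within libraries 2, 3 and 5 (-0.0996, where *Mme* was -0.688 against -0.132 over all libraries), *Agrp* without control 10 (0.0204; from -0.255), and *Dbh* within libraries 2, 3 and 5 (-0.0877). Where no cause is given by construction, the cause was not tested. No paired analysis was possible because the columns carry library numbers and no replicate numbers. With 4 and 3 pools and *Npy5r* below 120 normalized counts in each library, small receptor differences are beyond the precision.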
